A study of Homo sapiens with 6 samples.

Results

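The 6 genes described here encode the ISG15 conjugation system: the modifier ISG15, its activating enzyme UBA7, its conjugating enzyme UBE2L6, its ligase HERC5, the ligase paralog HERC6 and the ISG15-removing protease USP18. They were taken by name and not by a cut on their values, although earlier results of these data were known when they were chosen. All 6 were found among the 61541 genes of the deposited count files. Their RNA was measured by direct RNA nanopore sequencing, which reads native poly(A) RNA molecules, in RCC4, an established human clear cell renal carcinoma line. There were 3 untreated libraries and 3 libraries of cells given interferon gamma (IFNγ, 1000 U/mL) with tumour necrosis factor (TNF, 25 ng/mL) for 24 h, and the labels name no vehicle, although the file headers of both groups carry the word dmso in the names of the alignments. Each biological replicate came from 3 flasks of this single line, and IFNγ and TNF were always given together, so the response to either cytokine alone was not analysed here.

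ISG15 is a small protein built of a pair of ubiquitin-like domains, and like ubiquitin it is attached to lysines of other proteins by an enzyme cascade. UBA7 (the E1) activates it, UBE2L6 (the E2) carries it, HERC5 (the E3) transfers it to targets, many of them newly made proteins at the ribosome, and USP18 cuts it off again. USP18 also binds the type I interferon receptor subunit IFNAR2 with STAT2 and damps signalling there, a role that does not need its protease activity. The genes are classical interferon-stimulated genes, best known as targets of the transcription factor complex ISGF3, which binds the interferon-stimulated response element (ISRE) in promoters.

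Promoter sequence is shown because the genes were compared under an interferon and the ISRE is the element they are known for. RefSeq windows (GRCh38.p14) were at hand for ISG15, UBE2L6 (2 start sites), HERC5 and HERC6. The 250 bases before the start were searched on both strands for the ISRE core (GAAA, any 2 bases, GAAA), for the gamma-activated site (GAS) TTCNNNGAA and for the NF-kappaB core (GGGA, any 4 bases, CC). The ISRE core occurred in the windows of ISG15 (chr1:1013247-1013496, plus strand) and HERC5 (chr4:88456869-88457118, plus strand), and not in those of UBE2L6 or HERC6. Both UBE2L6 windows (chr11:57567936-57568185 and chr11:57567673-57567922, minus strand) lie inside the counted gene span, whose 5′ end is at 57568284. Bases upstream of that end were not searched. The HERC6 window crosses the start of its counted span at 88378739, so absence of a match holds for these windows alone. The window of HERC6 (chr4:88378602-88378851, plus strand) is set beside them as the neighbour and paralog of HERC5. Capitals mark bases that match the ISRE core on either strand.
ISG15: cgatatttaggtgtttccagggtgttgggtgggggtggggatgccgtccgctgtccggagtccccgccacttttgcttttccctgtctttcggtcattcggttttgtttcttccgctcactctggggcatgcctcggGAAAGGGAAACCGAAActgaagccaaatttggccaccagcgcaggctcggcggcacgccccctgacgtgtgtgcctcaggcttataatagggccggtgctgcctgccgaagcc
HERC5: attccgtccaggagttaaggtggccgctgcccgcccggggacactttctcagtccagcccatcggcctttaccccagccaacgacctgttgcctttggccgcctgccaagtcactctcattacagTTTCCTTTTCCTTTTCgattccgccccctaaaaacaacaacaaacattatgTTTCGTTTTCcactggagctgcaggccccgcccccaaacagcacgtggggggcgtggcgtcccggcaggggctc
HERC6: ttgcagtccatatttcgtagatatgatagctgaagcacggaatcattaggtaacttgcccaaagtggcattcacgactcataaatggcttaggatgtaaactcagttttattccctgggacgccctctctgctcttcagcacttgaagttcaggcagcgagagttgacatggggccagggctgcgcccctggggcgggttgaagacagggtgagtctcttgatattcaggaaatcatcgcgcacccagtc

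In ISG15 the 2 matches overlap each other, with first bases at -113 and -107 from the start. HERC5 holds 3 matches on the opposite strand, read here as TTTC, any 2 bases, TTTC, with first bases at -125, -119 and -74, and the first 2 of these overlap. Over all 35116 RefSeq windows of this length, 3.02% hold at least 1 ISRE core match and 0.225% hold 2 or more. The GAS and NF-kappaB letters, found in 6.57% and 22.6% of all windows, were in none of the 5 windows of these genes. A match is a description of the letters alone, and no binding was measured.

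Library totals ran from 3626000 to 4406296 counts. Untreated replicate 3 and treated replicate 1 had the composition (TMM) factors farthest from 1, at 1.12 and 0.914. For the 6 genes, results that rest on either are given without it. The carcinoma label was checked by markers: PAX8, CA9, KRT8 and VIM were read in all 6 libraries, with means of 145, 38.5, 1342 and 4594 CPM (reads of a gene relative to its library's TMM-scaled total) in untreated cells. Of 8 leukocyte markers, 5 including PTPRC were at 0 counts in every library, and the list summed to between 2.95 and 5.99 CPM in untreated and between 1.42 and 1.72 CPM in treated libraries. Of 8 endothelial and fibroblast markers 6 were at 0, PECAM1 and VWF among them, and that list summed to between 54.5 and 74.1 CPM in untreated and between 27.2 and 48.9 CPM in treated libraries. The highest gene of that list was COL1A1, with a mean of 45.8 CPM over all 6 libraries. All 10 renal markers were tested, and untreated levels are given for PAX8, CA9, KRT8 and VIM alone. Among the 10, 2 rose, NNMT and VIM, and 2 fell, KRT19 and PAX8. PAX8 fell to 83.7 CPM (log2 fold change -0.79, edgeR adjusted p 0.0316). CSF1R, the 1 leukocyte marker tested, was also called lower. So was PDGFRB, 1 of 2 endothelial and fibroblast markers tested. Of all genes tested, 5.58% were called higher and 2.55% lower. The part of these shifts in the results below was not tested. Differences between groups were tested in edgeR's quasi-likelihood fit over 10067 genes with Benjamini-Hochberg adjustment and a threshold of 0.05. In bulk RNA, more transcript per cell and a larger share of responding cells cannot be told apart.

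Among the 6 genes, ISG15, UBE2L6, USP18 and HERC6 rose after IFNγ and TNF, HERC5 was not past the threshold and UBA7 had too few counts for the fit. This made 4 of 5 tested genes higher and none lower, where 5.58% of all genes tested were called higher, 2.55% lower and 8.14% in either direction. Over these 5 the log2 fold changes had a median of 3.93, against -0.03 for all genes tested. Between 3 and 5 of them were called when 1 library was left out.

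**Figure D1:**
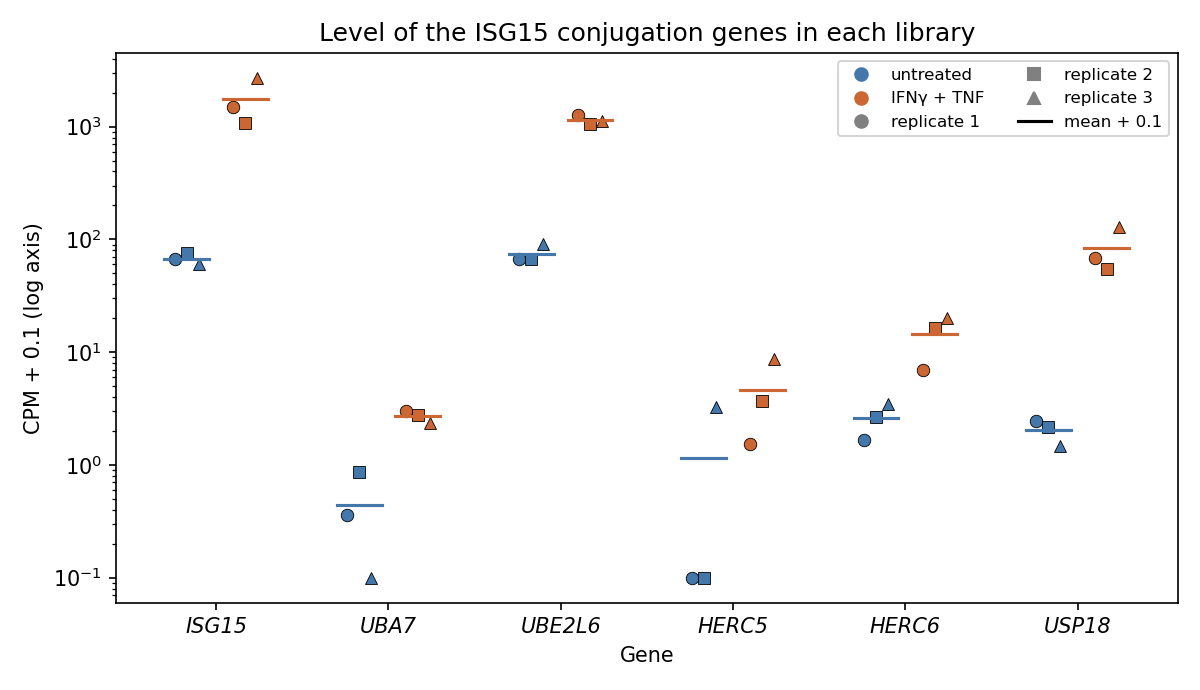
Level of each gene (CPM + 0.1, log axis) in the 3 untreated and 3 treated libraries, with the group mean as a line. ISG15 and UBE2L6 move from below 100 CPM to above 1000 CPM, whereas UBA7 and HERC5 stay below 10 CPM in every library.

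The modifier gene ISG15 (ENSG00000187608; GRCh38 chromosome 1, 1001138 to 1014540) had 67.2, 75.1 and 60.3 CPM in untreated replicates 1, 2 and 3, and 1498, 1085 and 2700.3 CPM in the treated replicates. Every treated library lay far above every untreated one, and treated replicate 3 held 2.49 times the level of treated replicate 2. The rise was 26.1-fold in mean CPM, a log2 fold change of 4.70 (SE 0.35, n = 3 each) with an edgeR adjusted p of 5.06e-05. Without treated replicate 3 the log2 fold change was 4.26. No same-strand exon of another gene overlaps ISG15 in the files.

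Ranked among all genes by CPM per kilobase of exon, ISG15 moved from between place 632 and place 704 in the untreated libraries to between place 25 and place 51 in the treated ones. UBE2L6 went from between place 946 and place 1377 to between place 122 and place 134. USP18 went from between place 7637 and place 9892 to between place 760 and place 1466. After treatment the modifier and its conjugating enzyme were thus among the highest genes by CPM per kilobase, at the depth of these libraries. Division by length lifts short genes such as ISG15 (867 exonic bases) against long ones, and places by CPM alone were not taken.

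The conjugating enzyme gene UBE2L6 (ENSG00000156587; chromosome 11, 57551656 to 57568284) had 66.7, 66.6 and 90.9 CPM in untreated and 1264, 1046 and 1112 CPM in treated replicates 1, 2 and 3. The treated libraries lay within 1.21 times of each other, the closest spread of the 6 genes in treated cells. Its log2 fold change was 3.93 (SE 0.21, edgeR adjusted p 6.43e-06), at rank 10 of 10067 genes by adjusted p. Its nearest relative UBE2L3, a ubiquitin E2, stood at 236 ± 19.3 CPM without the cytokines and at 318 ± 21.4 CPM with them (SD, n = 3 per group). That log2 fold change of 0.43 was not past the threshold (edgeR adjusted p 0.166).

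UBA7 (ENSG00000182179; chromosome 3, 49805209 to 49813953), the E1 that commits ISG15 to the cascade, had the lowest group means of the 6 per kilobase of exon and in CPM, although HERC5 was below it in 3 of 6 libraries, untreated replicates 1 and 2 among them. It had 1, 3 and 0 counts in the untreated and 10, 12 and 8 counts in the treated libraries, and did not pass the filter on low counts. The groups did not overlap, and among the genes that passed the filter 13.9% had all treated libraries above all untreated ones. The summed counts, 4 and 30, gave a ratio of 7.95 after scaling, with an exact 95% counting interval from 2.80 to 31.1 that leaves out the spread between replicates. In a fit of all 19158 genes that had any count, UBA7 was called higher (log2 fold change 2.89, SE 0.77, edgeR adjusted p 0.00413). Of the genes in that fit 4.43% were called higher, 2.5% lower and 6.93% in either direction. That call was lost with DESeq2 on the same genes (adjusted p 0.0774) and without treated replicate 2 (edgeR adjusted p 0.123). The microRNA gene MIR5193 covers 2.4% of the exonic bases of UBA7 on the same strand and had 0 counts itself.

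HERC5 (ENSG00000138646; chromosome 4, 88457119 to 88506163), the main ISG15 ligase of human cells, had 0, 0 and 14 counts in untreated replicates 1, 2 and 3, and 5, 16 and 30 counts in the treated ones. In CPM these were 0, 0 and 3.17 against 1.44, 3.59 and 8.52. Untreated replicate 3 lay above treated replicate 1, so the groups overlapped. The log2 fold change was 1.98 with an SE of 1.07 and an edgeR adjusted p of 0.369. Without untreated replicate 3 both remaining untreated libraries were at 0 and HERC5 was called higher (edgeR adjusted p 0.0169). Its fitted value of 7.12 there depends on the prior count and is no measure of size.

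HERC6 (ENSG00000138642; chromosome 4, 88378739 to 88443097) encodes the closest paralog of HERC5, which acts as the ISG15 ligase in mice. It had 1.56, 2.57 and 3.40 CPM in untreated and 6.90, 16.4 and 19.9 CPM in treated replicates 1, 2 and 3. All treated libraries lay above all untreated ones, as they did for 13.9% of the genes tested. The log2 fold change was 2.49 (SE 0.47, edgeR adjusted p 0.0114). The call was lost without untreated replicate 2 (0.0558), without treated replicate 2 (0.0555) or without treated replicate 3 (0.0593), with log2 fold changes of 2.51, 2.39 and 2.20.

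USP18 (ENSG00000184979; chromosome 22, 18150170 to 18177397), the protease that removes ISG15, showed the largest fold change of the 5 genes tested. It had 2.34, 2.06 and 1.36 CPM in untreated and 68.7, 55.0 and 129.7 CPM in treated replicates 1, 2 and 3, or 9, 8 and 6 against 239, 245 and 457 counts. As for ISG15, treated replicate 3 was the highest and treated replicate 2 the lowest in CPM, with a ratio of 2.36. The log2 fold change was 5.45 (SE 0.43) with an edgeR adjusted p of 7.28e-05, and 5.00 without treated replicate 3. USP41 is a close copy of USP18 on the same chromosome, so reads of the pair could be split or left uncounted. It had 0 counts in all 6 libraries.

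**Figure D2:**
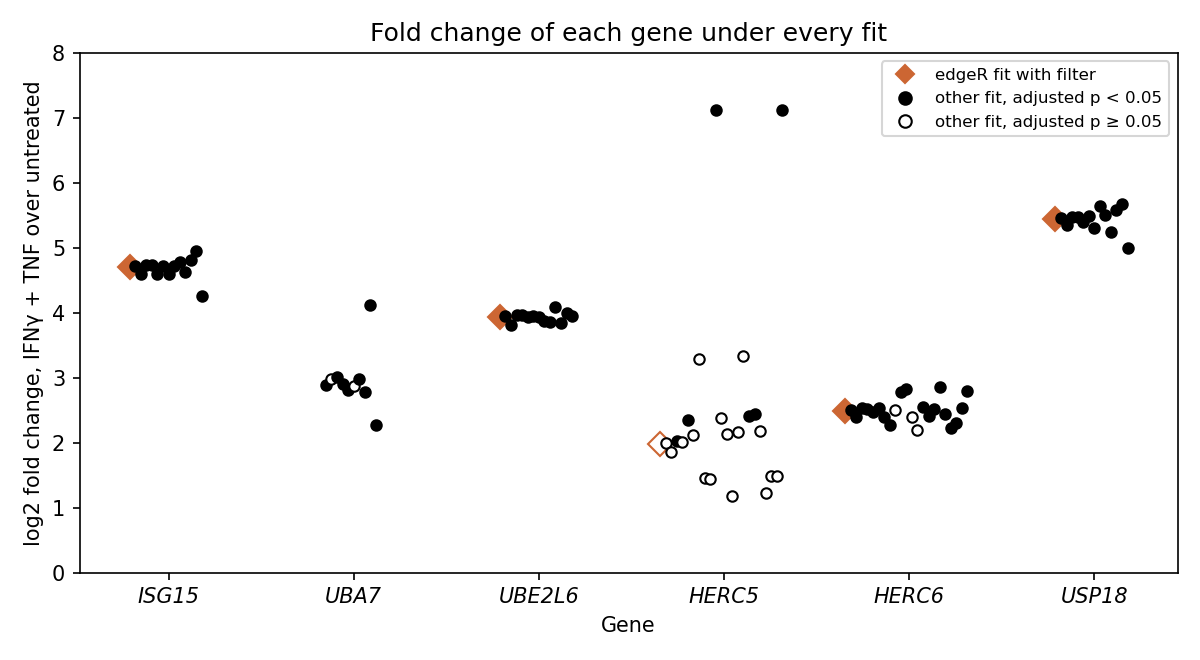
Log2 fold change of each gene (vertical axis) in the edgeR fit with the filter (diamonds) and in each other fit run (circles), filled where the adjusted p is under 0.05. ISG15, UBE2L6 and USP18 are filled throughout, HERC6 is open in 3 fits, UBA7 in 2, and HERC5 is open in most, with its 2 values above 7 from fits without untreated replicate 3. UBA7 has no diamond because it did not pass the filter.

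Per kilobase of exon the 6 genes kept one order of group means, ISG15, UBE2L6, USP18, HERC6, HERC5 and UBA7, before and after treatment. On that scale neighbours did not overlap across libraries down to HERC6, whereas HERC6 and HERC5, and HERC5 and UBA7, overlapped in both groups. In treated cells ISG15 stood at 2031 ± 968 CPM per kilobase (SD, n = 3) and UBE2L6 at 553 ± 54.3. USP18 followed at 45.5 ± 21.4 CPM per kilobase, HERC6 at 2.49 ± 1.16, HERC5 at 0.948 ± 0.762 and UBA7 at 0.574 ± 0.0681. The steps between neighbours in treated cells were 3.67-fold from UBE2L6 up to ISG15, 12.2-fold from USP18 to UBE2L6 and 18.3-fold from HERC6 to USP18. Direct RNA sequencing counts molecules from their 3′ end, so division by length lowers long genes such as UBA7 (4550 exonic bases) against short ones such as ISG15 (867). Without that division the untreated order differed, with UBE2L6 (74.7 ± 13.98 CPM) above ISG15 (67.5 ± 7.43) and HERC6 (2.51 ± 0.92) above USP18 (1.92 ± 0.507; SD, n = 3 for each), and both pairs overlapped across libraries.

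Ratios of gene pairs within each library show whether 2 genes changed by different folds. Each was tested with a 2-sided exact permutation test, which cannot go below 0.1 for 3 against 3 libraries, and adjusted over the 10 pairs. The ISG15 to USP18 ratio of CPM was 4.57, 4.89 and 5.03 on the log2 scale in untreated and 4.44, 4.29 and 4.37 in treated replicates 1, 2 and 3. Treated libraries lay below untreated ones by 0.46 in the mean (exact p = 0.1, adjusted 0.143). This difference depends on the 0.5 CPM added to both genes. It was -0.72 with 0.1 CPM added (exact p = 0.1) and -0.20 with 1 CPM added, where the groups overlapped (exact p = 0.3). The treated SD of the ISG15 to USP18 ratio was 0.07, against 0.66 for the ISG15 to UBE2L6 ratio. ISG15 and USP18 thus varied together across treated replicates more closely than ISG15 and UBE2L6 did, a description of 3 libraries with no test. The ISG15 to UBE2L6 ratio overlapped between groups, with a difference of 0.66 (exact p = 0.2, adjusted 0.222).

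The ISG15 to UBA7 and ISG15 to HERC5 ratios rose by 2.61 and 2.50 without overlap (exact p = 0.1, adjusted 0.143 for each). UBA7 and untreated HERC5 lie near the 0.5 CPM added to both genes, so these results depend on it. With 0.1 CPM added the differences were 1.51 and 1.09, and the groups overlapped (exact p = 0.3 and 0.8). With 1 CPM added the differences were 3.12 and 3.03 (exact p = 0.1 for each). The ISG15 to HERC5 difference was 1.46 without untreated replicate 3.

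Ratios to relatives outside the ISG15 system were compared in the same way. The UBE2L6 to UBE2L3 log2 ratio went from -1.66 ± 0.37 to 1.84 ± 0.11 (SD, n = 3 each; exact p = 0.1, adjusted 0.143), so that UBE2L6 passed UBE2L3 in CPM in all 3 treated libraries. The log2 ratio of UBA7 to UBA1, the main ubiquitin E1, went from -9.27 ± 0.53 to -7.09 ± 0.09 (exact p = 0.1, adjusted 0.143). This rise of 2.18 depends on the constant, and was 3.29 with 0.1 CPM and 1.66 with 1 CPM added. That of ISG15 to the ubiquitin gene UBB rose by 4.49, and that of USP18 to USP14, a proteasome-bound protease that can also bind ISG15, by 4.88 (exact p = 0.1 and adjusted 0.143 for each). HERC5 to HERC6 differed by -0.13 (exact p = 0.9), a value that changed sign in 3 of 9 other settings, and HERC5 to HERC4 by 2.08 with overlapping groups (exact p = 0.2). The latter was 3.50 with 0.1 CPM and 1.54 with 1 CPM added, and ran from 1.57 to 2.94 without 1 library.

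**Figure D3:**
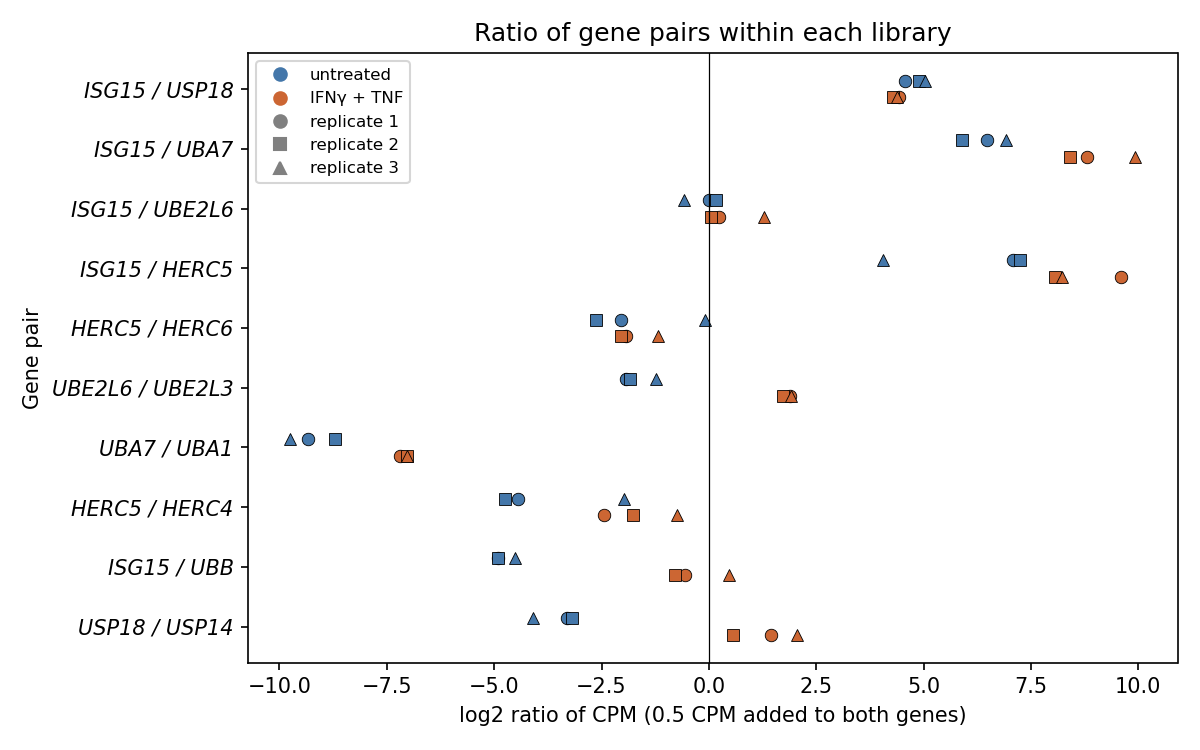
Log2 ratio of CPM within each library (horizontal axis, 0.5 CPM added to both genes) for 10 gene pairs, untreated and treated. The groups lie apart for 7 pairs and overlap for ISG15 to UBE2L6, HERC5 to HERC6 and HERC5 to HERC4.

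Counts of called genes in the lists of relatives, and in the lists after them, are to be read beside the share over all genes tested. That share was 5.58% called higher and 2.55% called lower. No share was taken for unadjusted p, so counts at that cut cannot be read as more or fewer than among all genes. None of the 9 other E1 genes was called in edgeR's fit (log2 fold changes from -0.19 to 0.13), and none of the 19 tested HECT ligases outside HERC5 and HERC6 was (log2 fold changes from -0.81 to 0.59). At an unadjusted p under 0.05 there were 0 and 1, and DESeq2 and limma voom called 0 of either list. Among the HERC genes, HERC2 had a log2 fold change of -0.35 (edgeR adjusted p 0.611) and HERC4 one of 0.03 (0.978), HERC1 was not tested, with between 3 and 18 counts, and HERC3 was at 0. Another gene identifier that bears the name HERC3 covers 81.8% of the last 500 exonic bases of HERC3, where reads would be ambiguous. Of 31 other E2 genes tested 1 was called, UBE2Z, a UBA6-linked E2, with a log2 fold change of 0.69 (edgeR adjusted p 0.044), which held without untreated replicate 3 and was lost without any other single library. At an unadjusted p under 0.05 there were 6 of these 31, among them UBE2H, picked out once its values were known. UBE2H had 59.9, 53.3 and 109 CPM in untreated and 29.9, 41.6 and 36.6 CPM in treated replicates 1, 2 and 3 (log2 fold change -1.04, edgeR adjusted p 0.0667, or 0.00196 in the fit of all genes with any count). Untreated replicate 3 was its highest library, and no fit of UBE2H without that library is given.

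Of 37 other USP-type proteases tested, 2 were called, both higher, where 5.58% of all genes tested were called higher. An unadjusted p under 0.05 was found for 6, a count with no share over all genes beside it. Under other settings some were called lower, 1 with library totals alone or DESeq2 and 2 with all genes tested. USP43 stood at 1.47 ± 0.604 CPM before and 8.28 ± 0.754 CPM after treatment (SD, n = 3 per group), with a log2 fold change of 2.46 (edgeR adjusted p 0.00547). CYLD, which trims ubiquitin chains in NF-kappaB signalling, went from 14.1 ± 2.90 to 31.5 ± 4.09 CPM (log2 fold change 1.15, edgeR adjusted p 0.0175). The CYLD call was lost without untreated replicate 1 or 2 and without treated replicate 2 or 3.

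Among 17 tested genes for ubiquitin and other ubiquitin-like modifiers, UBD and GABARAPL1 rose and none fell past the threshold, with a median of 0.08 for the list's log2 fold changes. UBD encodes FAT10, another cytokine-induced modifier with a pair of ubiquitin-like domains. It had 0 counts in the untreated and 25, 27 and 26 in the treated libraries, at least 9.24-fold higher against a level of 3 counts per library. Exons of GABBR1 on the same strand cover 77.2% of its last 500 exonic bases, so reads of UBD could be left uncounted. GABARAPL1, an autophagy modifier, had 18.0, 26.2 and 70.0 CPM in untreated and 164, 159.9 and 215 CPM in treated replicates (log2 fold change 2.23, edgeR adjusted p 0.0146, and 3.02 without untreated replicate 3). Its call was lost without untreated replicate 2 or treated replicate 2 or 3. The abundant ubiquitin gene UBB had a log2 fold change of 0.08 (edgeR adjusted p 0.897).

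**Figure D4:**
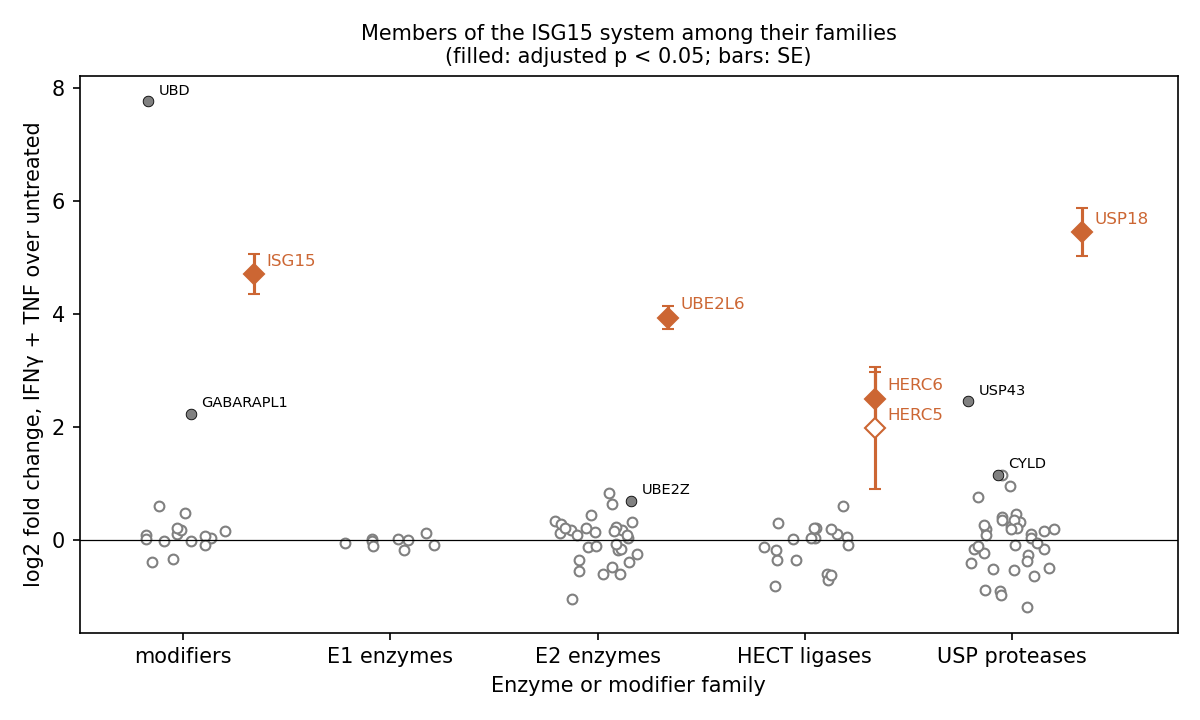
Log2 fold change (vertical axis) of every tested gene in 5 families of ubiquitin-like modifiers, enzymes and proteases, with the ISG15 system genes as diamonds with their SE and filled symbols for an adjusted p under 0.05. ISG15, UBE2L6, USP18 and HERC6 lie above all other genes of their families but UBD, whose fitted value rests on 0 untreated counts.

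Of 9 other genes tied to ISG15, 6 were tested and 1 was called. TRIM25, a ligase that can also attach ISG15 and is itself modified by it, had 24.8 ± 2.38 CPM before and 58.1 ± 11.8 CPM after treatment (SD, n = 3 per group). Its log2 fold change was 1.23 (SE 0.22, edgeR adjusted p 0.00831), and the call was lost without untreated replicate 2 (0.0581). ARIH1, another reported ISG15 ligase, had a log2 fold change of 0.08. The proteases reported to cross-react with ISG15, USP5, USP13, USP14 and USP24, had values from -0.23 to 0.19, with edgeR adjusted p from 0.772 to 0.918. USP16 was not tested, with 1.47 ± 1.10 CPM in treated cells, and ITGAL, a subunit of the receptor for secreted ISG15, was at 0 counts in all libraries.

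Among 17 proteins reported to carry ISG15, 15 genes were tested, 1 was called higher and none lower, and their log2 fold changes had a median of 0.24. IRF3 and EIF2AK2 lay just outside the threshold, with log2 fold changes of 0.92 and 1.25 and edgeR adjusted p of 0.0504 and 0.0628. Of 13 alternatives, 7 called IRF3 and 6 called EIF2AK2, while edgeR adjusted p reached 0.147 and 0.231 in others.

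In the list of interferon receptors and signal transducers, 10 of 12 genes were tested, 5 rose past the threshold and none fell, and the list had a median log2 fold change of 1.36. STAT2 had 13.3, 12.1 and 39.7 CPM in untreated and 145, 100.2 and 154 CPM in treated replicates, with a log2 fold change of 2.60 (edgeR adjusted p 0.00612), or 3.38 without untreated replicate 3. Untreated replicate 3 was thus the highest untreated library for HERC5, HERC6, UBE2L6 and STAT2, and the lowest for ISG15 and USP18. The part of that library's own differences in these results was not tested beyond leaving it out. IRF1, a transcription factor that binds ISRE-like sites, had a log2 fold change of 5.29 and the signalling inhibitor SOCS1 one of 5.15 (edgeR adjusted p 3.35e-06 and 3.85e-05). IFNAR2, the receptor subunit that USP18 binds, had 1.38 ± 0.398 CPM before and 5.50 ± 0.883 CPM after treatment (SD, n = 3 per group; edgeR adjusted p 0.016 for a log2 fold change of 1.96), a call lost without untreated replicate 2 or treated replicate 2 or 3. IRF9 was at 0 counts in all libraries, with 77.4% of its last 500 exonic bases shared with a gene on the same strand.

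The type I and III interferon genes themselves were close to absent from the counts. Of 20 such genes, 17 including IFNB1 had 0 counts in all 6 libraries. IFNL1, IFNL2 and IFNL3 had 5, 2 and 1 counts in total over the treated libraries and 0 in the untreated ones. A count of 0 allows up to 3 counts, between 0.681 and 0.827 CPM per library before normalisation, and interferon genes expressed before 24 h would not be seen.

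The genes most like each member were sought over all 10067 tested genes, by the root mean square difference of centred log2 CPM over the 6 libraries. For ISG15 they were CEACAM1, FAM167B and TNFRSF14 (0.206, 0.257 and 0.266 log2 units), and for USP18 they were TNFRSF14, CEACAM1 and ISG15 (0.260, 0.265 and 0.269). For UBE2L6 they were GJD3, UBD and ADAP1 (0.110, 0.167 and 0.179). For HERC6 they were IL7R, NFE2L3 and ITGA6 (0.199, 0.244 and 0.246). HERC5 had no gene as close, with FOLR3, PARP8 and TTC39A at 0.426, 0.434 and 0.511. CEACAM1, TNFRSF14, UBD and ADAP1 had 0 counts in all untreated libraries and GJD3 and FAM167B had 1 count over the 3, so their place rests on the prior count of 2 used for the log scale.

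The genes sit at 5 places in the genome, with HERC6 and HERC5 next to each other on chromosome 4, 14021 bases apart on the same strand. The nearest tested genes on either side were added once these results were known. Of these, outside the 6 genes themselves, only SERPING1 was called, which encodes the complement C1 inhibitor and lies 29.1 kb from UBE2L6. Its level was 0.927 ± 1.19 CPM before and 167.7 ± 73.1 CPM after treatment (SD, n = 3 per group), a log2 fold change of 7.37 (edgeR adjusted p 0.000131). Beside ISG15, HES4 lies on the opposite strand, 965 bases from the lower end of the ISG15 gene span at 1001138. The RefSeq start of ISG15 lies farther from HES4, with its promoter window ending at 1013496. HES4 had a log2 fold change of 0.61 (edgeR adjusted p 0.25). AGRN, 5.58 kb beyond the other end of the span, had one of -0.25 (0.699). The neighbours of UBA7, IP6K1 and TRAIP, had log2 fold changes of -0.27 and 0.68, and PEX26 beside USP18 had one of -0.33.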

How the data were processed

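The authors deposited raw counts of reads by gene, from featureCounts 2.0.1 run strand-specific in its long-read mode on exons of Ensembl release 105 (GRCh38), per the file headers. The submitters' processing notes name minimap2 2.24, SAMtools 1.16 and featureCounts 2.0.0. Exonic gene length is the deposited length column. Groups and replicates came from the sample titles. The members, gene lists and pairs were chosen with earlier results of these data known.

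Counts were fitted with edgeR 4.0.16 (R 4.3.3; TMM, filterByExpr, group as sole term). The fit was also run on simulated counts of genes past the filter, without UBA7, and that outcome is not given here. CPM uses TMM library sizes. SE is the absolute log2 fold change over the square root of F. Pair ratios added 0.5 CPM. Alternatives were 2 scalings, 2 filters, the replicate block, DESeq2 1.42.0, limma 3.58.1 voom, other pseudocounts and leaving out each library. Fits of every gene with at least 1 count under a second change were added after seeing the data. Named were the members, their pair partners, the 3 genes most like each, genes of the lists past the threshold (at most 5 a direction) with the most abundant, all other ISG15 enzymes, HERC1 to HERC4 and overlapping genes. IRF3, EIF2AK2, UBE2H, SERPING1 and other neighbours were named after their values were seen. Symbols matched 61369 of 61541 identifiers. Counts of 3 or fewer limit UBA7 and HERC5, and limits from counts cover counting error only. A few genes of the lists are counted but not reported by name here.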

Additional observations from a re-analysis of the deposited data

How the results depend on the processing

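ISG15, UBE2L6 and USP18 kept their direction and their call in all 13 alternatives, with log2 fold changes from 4.26 to 4.96, 3.81 to 4.10 and 5.00 to 5.68. HERC6 kept its direction, from 2.20 to 2.82 without 1 library, and lost its call in 3 of those fits. For HERC5 the value ran from 1.18 to 7.12 without 1 library and was called without untreated replicate 3. HERC5 was also called at 2.03 in the fit of all genes with any count and at 2.35 with the replicate block. With all genes tested, HERC5 had 2.41 with the replicate block and from 1.23 to 7.13 without 1 library, called at 2.43 without treated replicate 1 and at 7.13 without untreated replicate 3, and not called with DESeq2 (adjusted p 0.797) or limma voom (0.0658). UBA7, whose ratio of mean CPM was 2.92 on the log2 scale, had 2.89 in that fit, 3.02 with limma voom, 2.91 with the replicate block, 2.99 with DESeq2 (adjusted p 0.0774, not called) and from 2.28 to 4.13 without 1 library. Those calls were at 2.28, 2.78, 2.82, 2.98 and 4.13, and the call was lost without treated replicate 2. That fit assumes 1 common spread for all genes (its prior degrees of freedom were infinite), and its adjusted p are far smaller than those with the filter (5.03 prior degrees of freedom).

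The HERC5 to HERC6 ratio turned to 1.11 with 0.1 CPM added and ran from -0.65 to 0.61 without 1 library. Over all genes, 819 were called. There were 1328 with every gene tested, 1512 with the replicate block and from 455 to 1120 without 1 library. Library totals alone moved the median of all genes to -0.13, and 57.4% of calls were then higher (489 against 363) in place of 68.6% (562 against 257). Called ISG15 targets numbered 2 with library totals alone, the 10-count filter or limma voom, 3 with every gene tested, the replicate block or DESeq2, and from 0 to 3 without 1 library. Other E2 genes called numbered 3 with every gene tested or DESeq2, 4 with the replicate block and from 0 to 2 without 1 library. Other USP-type proteases numbered 4 with every gene tested, 5 with the replicate block (2 of them lower) and from 1 to 3 without 1 library. Without 1 library the counts ran from 0 to 1 for other ISG15 enzymes, 3 to 5 for interferon signalling and 1 to 2 for modifiers. Same-numbered libraries had correlations of their deviations of 0.651, -0.0037 and 0.374. Libraries with different numbers had correlations from -0.674 to 0.413. These values do not settle whether the numbers mark pairs. The labels do not say so, and the replicate block was therefore kept as an alternative.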
